A study of Homo sapiens with 6 samples.

Results

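The genes described here encode subunits of eukaryotic translation initiation factor 3 (eIF3). They are EIF3A, EIF3B, EIF3D, EIF3E, EIF3F, EIF3G, EIF3H, EIF3I, EIF3J and EIF3M, 10 of 61806 genes listed, found by gene symbol. The set was chosen by family name and, in part, selected on a lower EIF3J estimate in shFTO than in shNC. The difference between the groups is therefore given for all 10 as a description, without a p-value. The series compared MG63 cells, an established human osteosarcoma line, in which a stably expressed hairpin targeted FTO (shFTO) with MG63 cells that held a control hairpin (shNC), in 3 biological replicates each. FTO encodes a demethylase that removes N6-methyladenosine from RNA, and the design asked which transcripts depend on it. The labels do not say whether the knockdown line was a pool or a single clone, and they give no hairpin sequence.

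eIF3 is the largest of the translation initiation factors. It binds the small ribosomal subunit, helps to bring in the initiator tRNA and the messenger RNA, and keeps the ribosomal subunits apart before a start codon is found. Its core is built from subunits with PCI or MPN domains, folds it shares with the COP9 signalosome and the lid of the proteasome. EIF3B, EIF3G and EIF3I form a peripheral module near the messenger RNA entry side, and EIF3D can bind the cap of some messenger RNAs. EIF3J is bound only loosely, lies near the decoding site of the small subunit and also takes part in separating ribosomes after termination.

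Levels were given as FPKM, fragments scaled to the exonic length of the gene and to the total of the library, from which whole reads were worked back. A library held 93629 to 106245 reads in all, so 1 read of EIF3J was worth 3.01 to 3.42 FPKM. Genes that cells express strongly had few reads, 75 over the 6 libraries for ACTB (cytoplasmic actin) and 88 for GAPDH (a glycolytic enzyme), and EIF4A1, the main helicase of initiation, had 3, while EIF4G2 had 51570. Whether the table holds all reads of these libraries was not tested, so levels, ranks and shares below describe the deposited values and may not stand for amounts in the cells. FTO was listed at 0 in all 6 libraries. A count of 0 allows up to 3 reads over the libraries of a group, or 0.462 FPKM of FTO in shFTO and 0.486 FPKM in shNC, so the knockdown could not be checked. Of 9 markers of mesenchymal and bone lineage 6 had reads, led by COL1A1 with 139, and ALPL, BGLAP and SPP1 were listed at 0. Blood, adipocyte and neural markers had no read, and KRT18 was the only marker of the other lists with more than 2 reads, 6 in shFTO and 0 in shNC. Whether these few reads bear on the values below was not tested.

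The 10 genes had 701 reads over the 6 libraries, of which EIF3J held 479 and the other 9 genes together 222. Only 2 genes, EIF3J and EIF3A, reached 10 reads per library on average. Reads in every library were found for 3 genes, EIF3J, EIF3A and EIF3H, while 7 genes were listed at 0 in at least 1 library. At these read numbers a value of 0 says only that the gene is listed at 0.

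**Figure D1:**
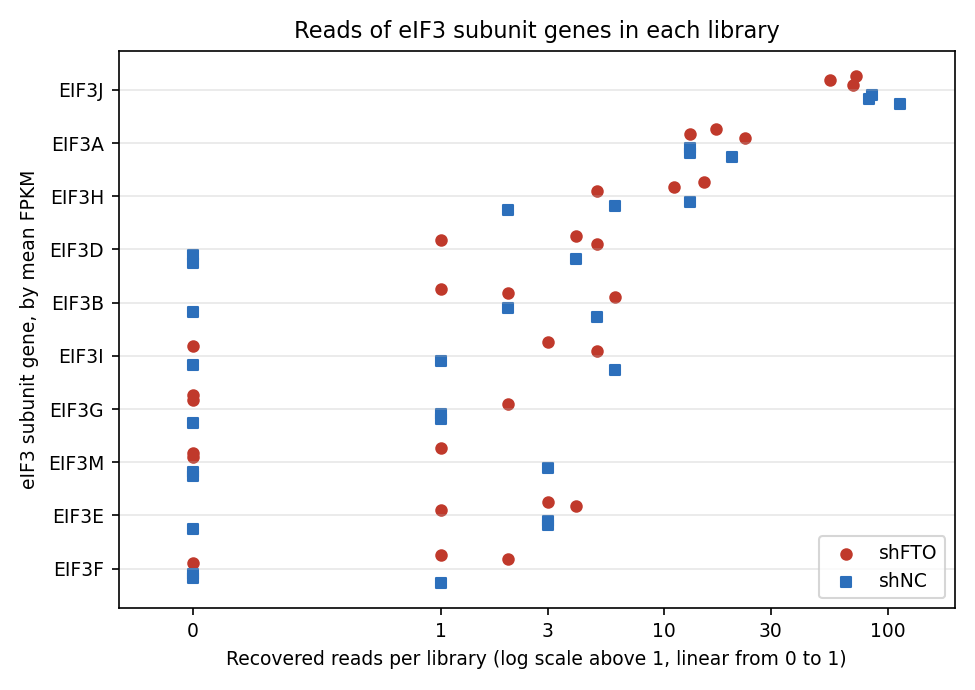
Recovered reads of each eIF3 subunit gene (rows, ordered by mean FPKM) in each of 6 libraries, on a horizontal axis that is logarithmic above 1 read and linear from 0 to 1. Red circles are the 3 shFTO libraries and blue squares the 3 shNC libraries. EIF3J has 55 to 114 reads a library, EIF3A 13 to 23, and 7 genes have 0 reads in at least 1 library.

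EIF3J (ENSG00000104131) lies on the plus strand of GRCh38 chromosome 15, from 44537125 to 44563029. The bases before its start are shown because EIF3J is the gene on which the values turn and because it shares this region with a gene read in the other direction. RefSeq places the EIF3J start site at 44537147 (GRCh38.p14, chromosome 15, plus strand), and the 250 bases before it, chr15:44536897-44537146, read as follows, with matches to the GC box in capitals.
EIF3J: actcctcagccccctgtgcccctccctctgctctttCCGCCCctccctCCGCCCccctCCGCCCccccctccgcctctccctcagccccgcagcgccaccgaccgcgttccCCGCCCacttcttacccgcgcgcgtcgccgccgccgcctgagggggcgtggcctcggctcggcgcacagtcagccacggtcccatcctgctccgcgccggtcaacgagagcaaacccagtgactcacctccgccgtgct

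The last 22 of these bases lie inside the gene as the deposited table lists it. Those up to position 44537046 lie inside EIF3J-DT, the gene read in the other direction, as listed. The window was searched on both strands for the GC box (GGGCGG, which is CCGCCC read on the other strand), the CCAAT box, the TATA box (spelled TATAAA) and a core of ETS family sites (spelled CCGGAAG). It held 4 GC boxes that do not overlap and no match to the other 3 motifs. Of 35116 RefSeq windows of the same length, 42.6% held the GC box, 32.0% the CCAAT box, 10.7% the TATA box and 8.52% the ETS core. G and C made up 74.4% of the bases, a share reached by 11.6% of all windows, and there were 29 CG pairs, a number reached by 14.1%. Promoter windows were found for 6 of the 10 genes, of which 5 held the GC box, 3 the CCAAT box, 2 the ETS core and 0 the TATA box. These matches describe letters and not binding.

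The noncoding gene EIF3J-DT, the divergent transcript of EIF3J, lies on the minus strand from 44527257 to 44537046, with 78 bases between it and EIF3J as listed. It had 2 reads, both in shFTO replicate 2, and was listed at 0 in the other 5 libraries. EIF3J and EIF3J-DT do not overlap as listed, and no source used here states whether counting used strand.

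EIF3J stood at 217, 187 and 216 FPKM in shFTO replicates 1, 2 and 3, against 288, 263 and 389 FPKM in shNC replicates 1, 2 and 3. Every shFTO library lay below every shNC library, and shNC replicate 3 was the highest of the 6. The highest shFTO library stood 46.1 FPKM below the lowest shNC library. The reads behind these values were 72, 55 and 70 in shFTO and 85, 83 and 114 in shNC.

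EIF3J averaged 207 ± 17.1 FPKM in shFTO and 313 ± 67.0 FPKM in shNC (SD, n = 3 each), or 0.659 times as much in shFTO. The log2 difference was -0.58 (SE 0.16) on log2(FPKM + 1). These are the values for which the set was picked, and they are not evidence of an effect. In RNA from whole cultures, less transcript per cell and fewer cells with the transcript cannot be told apart. Without shNC replicate 3 the control mean was 275 FPKM, the ratio 0.750 and the log2 difference -0.41. The variance between replicates was 0.429 times that of counting alone in shFTO and 4.30 times in shNC.

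**Figure D2:**
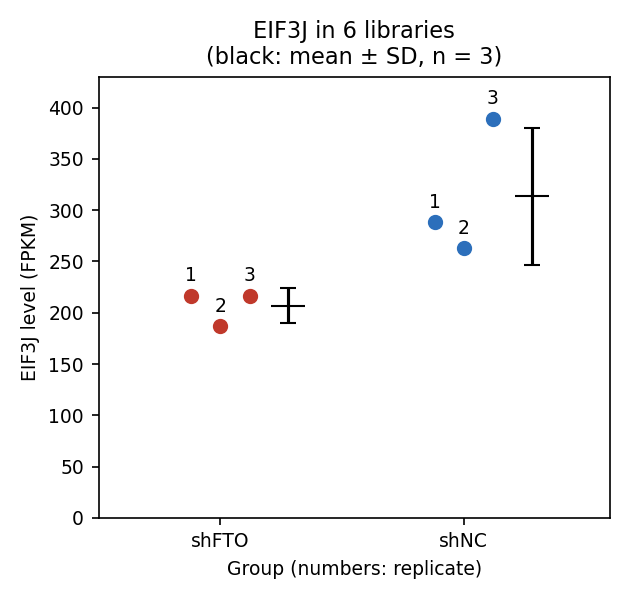
EIF3J level in FPKM (vertical axis, from 0) in each shFTO library (red) and each shNC library (blue), numbered by replicate, with the mean ± SD of 3 libraries in black. The shFTO libraries lie between 187 and 217 FPKM and the shNC libraries between 263 and 389 FPKM.

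Over the series EIF3J had the 127th highest mean FPKM of 7057 genes with a read, and held 0.0808% of all reads. There were 182 other tested genes with 0.5 to 2 times its reads. Their log2 differences ran from -0.76 to 0.54 with a median of 0.02, and 1 of them was lower than that of EIF3J. Since EIF3J was picked for a low value of this kind, its place among them is a description and tests nothing. In 14 of the 182 every shFTO library lay below every shNC library, as in EIF3J, and in 15 every shFTO library lay above. Over all 4932 genes tested, 3.69% were separated in the direction of EIF3J.

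The PCI and MPN genes among the 10 are EIF3A, EIF3E, EIF3F, EIF3H and EIF3M. EIF3A (ENSG00000107581, chromosome 10, 119033670 to 119080823, minus strand) encodes the largest subunit, the scaffold of the core. It had 22.5, 19.5 and 31.3 FPKM in shFTO replicates 1, 2 and 3, against 19.4, 18.1 and 30.1 FPKM in shNC replicates 1, 2 and 3. The groups overlapped, and replicate 3 was the highest library of each. EIF3A averaged 24.4 ± 6.15 FPKM in shFTO and 22.5 ± 6.56 FPKM in shNC (SD, n = 3 each), with a log2 difference of 0.12 (SE 0.41) from 53 and 46 reads.

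EIF3H (ENSG00000147677, chromosome 8, 116642130 to 116766925, minus strand) encodes an MPN subunit. It had 21.95, 18.2 and 7.51 FPKM in shFTO replicates 1, 2 and 3, against 21.4, 9.24 and 3.32 FPKM in shNC replicates 1, 2 and 3. The groups overlapped, with replicate 1 highest and replicate 3 lowest in both, and the replicate numbers carry no known pairing. EIF3H averaged 15.9 ± 7.49 FPKM in shFTO and 11.3 ± 9.23 FPKM in shNC (SD, n = 3 each). Its log2 difference was 0.64 (SE 0.60), from 31 and 21 reads.

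EIF3E (ENSG00000104408, chromosome 8, 108162787 to 108443496, minus strand), a PCI subunit, had 3, 4 and 1 reads in shFTO replicates 1, 2 and 3 and 3, 3 and 0 reads in shNC replicates 1, 2 and 3. With an exonic length of 37761 bases, these stood for at most 1.13 FPKM. EIF3F (ENSG00000175390, chromosome 11, 7970251 to 8001862, plus strand), the other MPN subunit, had 1, 2 and 0 reads in shFTO and 0, 0 and 1 in shNC. EIF3M (ENSG00000149100, chromosome 11, 32583798 to 32606264, plus strand), a PCI subunit, had 1, 0 and 0 reads in shFTO and 3, 0 and 0 in shNC. In these 3 genes the groups overlapped, and a difference was not detectable at this depth. EIF3E and EIF3F had means under 1 FPKM in both groups and were left out of the test by the filter on low values.

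In the peripheral module EIF3B (ENSG00000106263, chromosome 7, 2354086 to 2380745, plus strand), an RNA-recognition subunit, had 1.05, 2.36 and 6.45 FPKM in shFTO replicates 1, 2 and 3, against 2.36, 0 and 5.94 FPKM in shNC replicates 1, 2 and 3. EIF3I (ENSG00000084623, chromosome 1, 32221077 to 32245397, plus strand), a WD-repeat subunit, had 2.96, 0 and 5.07 FPKM in shFTO and 1.11, 0 and 6.73 FPKM in shNC. EIF3G (ENSG00000130811, chromosome 19, 10115014 to 10119918, minus strand), which binds RNA, had 0, 0 and 5.54 FPKM in shFTO and 3.04, 2.84 and 0 FPKM in shNC. The groups overlapped in each of these genes, which had 16, 15 and 4 reads in all.

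EIF3D (ENSG00000100353, chromosome 22, 36510855 to 36529184, minus strand), the cap-binding subunit, had 9.87, 2.79 and 12.7 FPKM in shFTO replicates 1, 2 and 3, against 0, 10.4 and 0 FPKM in shNC replicates 1, 2 and 3. These were 4, 1 and 5 reads in shFTO and 0, 4 and 0 reads in shNC, and the groups overlapped. The log2 difference of EIF3D was 1.88 (SE 1.00) with a pseudocount of 1 and 3.93 with 0.1, so its size was set by the pseudocount. Per read of library total, EIF3D reads in shFTO were 2.38 times those in shNC (exact 95% interval 0.686 to 10.4, counting error only).

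Over the whole table, limma on log2(FPKM + 1) called 2 of 4932 genes at an adjusted p under 0.05, or 0.0406%, and 0 of the 8 eIF3 genes that passed the filter. A quasi-Poisson fit to recovered reads called 0 of 1021 genes with enough reads over the whole table, and so 0 of the 3 eIF3 genes among them. Of the 8 genes 3 had a lower estimate in shFTO (EIF3J, EIF3G and EIF3M) and 5 a higher one, against 49.6% of all genes with a lower one. EIF3J was picked for its lower estimate. EIF3M passed the filter only through shNC, at 0.423 FPKM in shFTO and 1.43 FPKM in shNC. The count of signs is therefore a description and tests nothing. The median log2 difference was 0.15 for the 8 and 0.00 for all genes tested. EIF3J was the only one of the 10 whose groups did not overlap, where 3.69% of all genes tested were separated with shFTO lower and 2.9% with shFTO higher.

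**Figure D3:**
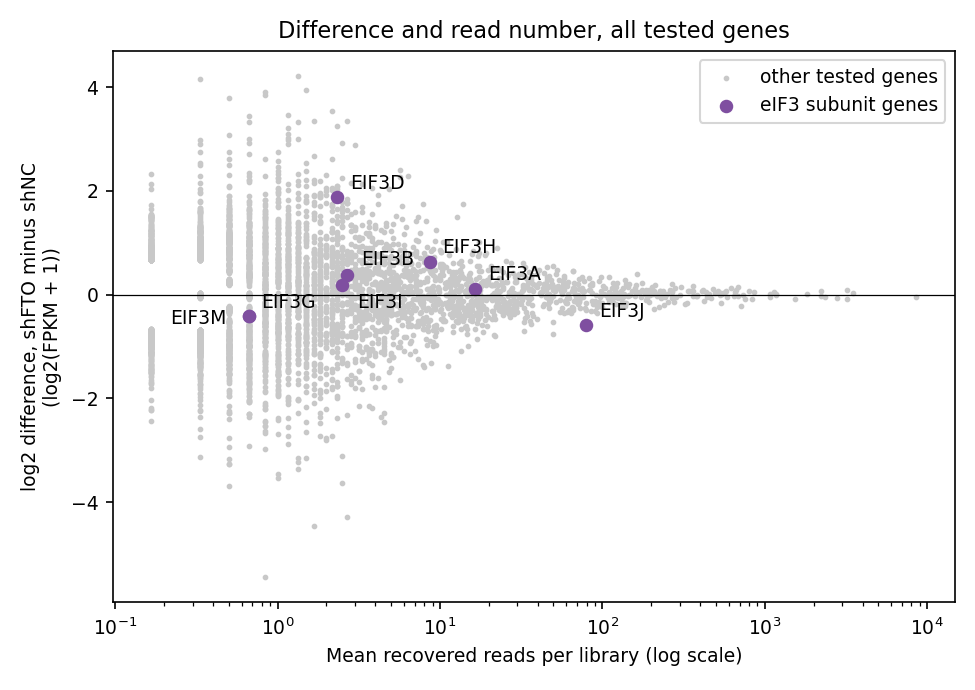
Log2 difference between shFTO and shNC on log2(FPKM + 1) (vertical axis) against mean recovered reads per library (horizontal axis, log scale) for 4932 tested genes in grey and the 8 tested eIF3 subunit genes in purple. Differences spread widely where reads are few, as for EIF3D at 1.88. EIF3J, at -0.58 and 79.8 reads a library, lies at the lower edge of genes with similar read numbers, which is the value it was picked for. EIF3G and EIF3M share nearly the same point.

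The part of eIF3 reads that came from EIF3J was smaller in every shFTO library than in any shNC library. EIF3J gave 61.5%, 62.5% and 59.8% of the reads of the 10 genes in shFTO replicates 1, 2 and 3, against 70.2%, 75.5% and 77.0% in shNC replicates 1, 2 and 3. The Wilson 95% interval, which covers counting error only, ran from 55.8% to 66.3% over the shFTO libraries together and from 69.8% to 78.5% over the shNC libraries together. The share rests on the EIF3J values above, for which the set was picked, and is a description. The variance of EIF3J between shNC replicates was 4.30 times that of counting, so these intervals are too narrow to compare the groups.

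Scaled to 100000 reads of the library, the other 9 genes together had 42.4, 35.1 and 45.4 reads in shFTO replicates 1, 2 and 3, against 38.2, 26.7 and 36.3 in shNC replicates 1, 2 and 3. These overlapped, with 41.0 ± 5.32 reads in shFTO and 33.7 ± 6.13 in shNC (SD, n = 3 each). All 10 genes together had 106 ± 10.5 reads in shFTO and 132 ± 24.8 in shNC, and these overlapped as well.

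**Figure D4:**
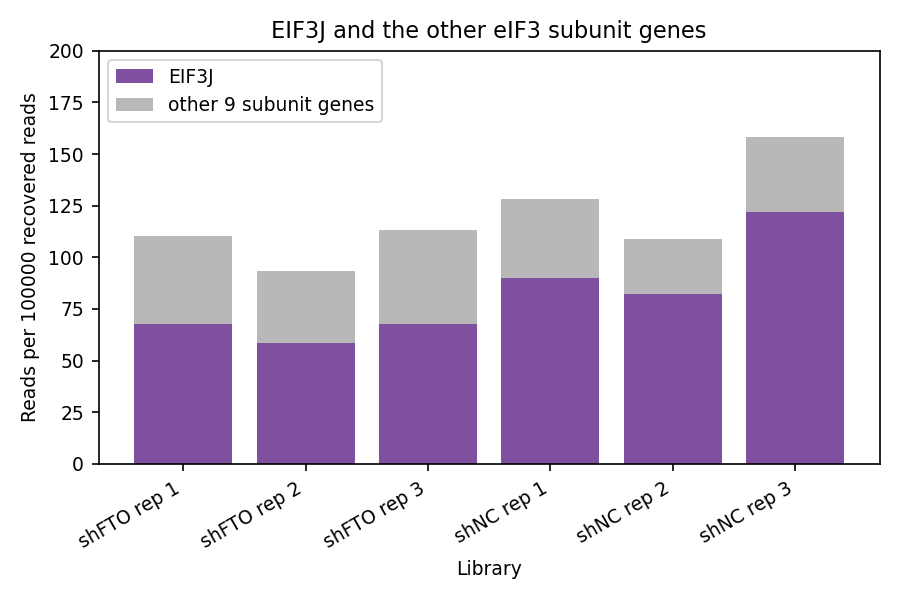
Reads per 100000 recovered reads of each library (vertical axis, from 0) for EIF3J (purple) and for the other 9 eIF3 subunit genes together (grey), by library. EIF3J makes up 58.5 to 67.8 in shFTO and 82.2 to 122 in shNC, while the grey parts range from 35.1 to 45.4 in shFTO and from 26.7 to 38.2 in shNC.

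In order of mean FPKM over the 6 libraries the genes were EIF3J (260), EIF3A (23.5), EIF3H (13.6), EIF3D (5.95), EIF3B (3.03), EIF3I (2.65), EIF3G (1.90), EIF3M (0.925), EIF3E (0.628) and EIF3F (0.455). The lowest EIF3J library, at 187 FPKM, stood above the highest value of any other member, 31.3 FPKM for EIF3A. EIF3J was above EIF3A in 6 of 6 libraries, by a mean of 3.40 on the log2 scale. The exact two-sided paired permutation test gave p = 0.0312, the smallest that 6 libraries allow, and an adjusted p of 0.281 over 9 neighbouring pairs. EIF3A was above EIF3H in 5 of 6 libraries (mean log2 difference 0.94, exact permutation p = 0.156, adjusted p = 0.469).

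After adjustment 0 of the 9 neighbouring pairs differed, and 1 had an unadjusted p under 0.05 in the exact permutation test. With 9 pairs the adjusted p of a single pair cannot pass the threshold in 6 libraries, so this count says nothing on whether levels were alike. From EIF3D downward, neighbours stood higher in 2 to 4 of 6 libraries, and their order was not resolved at 4 to 16 reads a gene.

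The deposited lengths join all exons of a gene and differ from its coding sequence by amounts that vary between the genes. The exonic length of EIF3E was 28.3 times its longest coding sequence in GENCODE release 29 and that of EIF3F 14.1 times, against 4.04 times for EIF3J and 1.71 times for EIF3A. On the FPKM scale but with coding length in place of exonic length, EIF3J stood at 1051, EIF3H at 79.7, EIF3A at 40.2, EIF3I at 25.9 and EIF3E at 17.7 (means of 6 libraries). EIF3H thus stood above EIF3A on this scale and below it on the deposited one, and EIF3E moved from the 9th to the 5th place. EIF3J stayed first on both, at 13.2 times the level of EIF3H per coding length and 11.1 times that of EIF3A per exonic length.

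**Figure D5:**
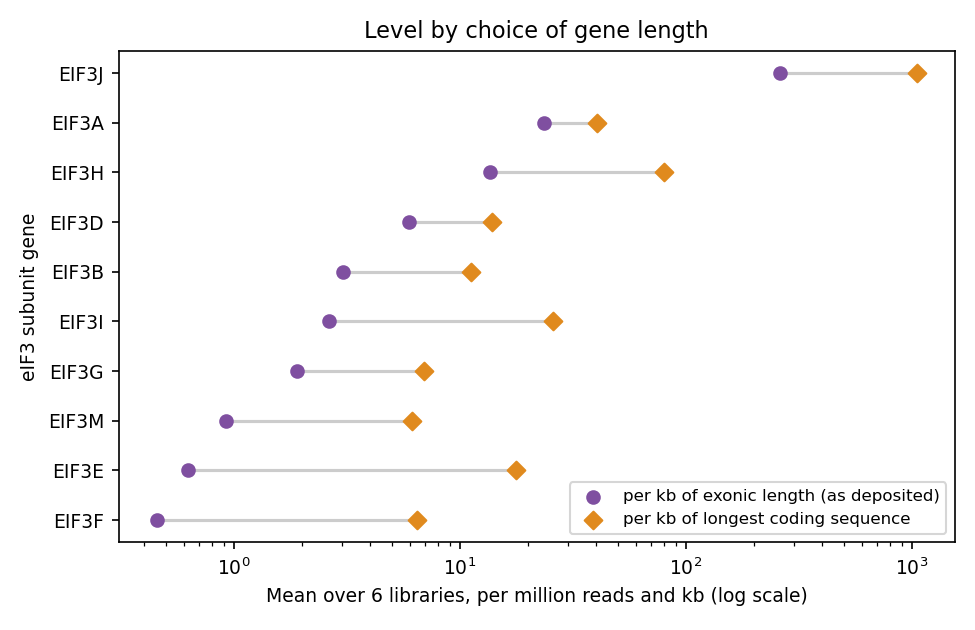
Mean level over 6 libraries of each eIF3 subunit gene on the FPKM scale (horizontal axis, log scale), with the deposited exonic length (purple circles) or the longest coding sequence in GENCODE release 29 (orange diamonds). EIF3J is highest on both scales, and EIF3E has the widest gap, 0.628 against 17.7.

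Of the 13 listed genes EIF3A to EIF3M, 3 are outside the set of 10. EIF3L, a PCI subunit gene, had 2, 1 and 3 reads in shFTO replicates 1, 2 and 3 (4.38, 2.47 and 6.75 FPKM) and was listed at 0 in all 3 shNC libraries. At 3 reads over the group, EIF3L would stand at 2.42 FPKM in shNC. Its log2 difference of 2.39 (SE 1.02) was not called by limma (adjusted p = 0.772). EIF3L passed the filter only through shFTO, so the direction was set by entry to the test. With every shNC value at 0, the size of the difference depends on the pseudocount. Of all genes tested, 2.9% had every shFTO library above every shNC library. EIF3C, a core scaffold gene, had 1 read, in shNC replicate 2, and EIF3K, a PCI subunit gene, was listed at 0 in all 6 libraries. Reads of EIF3C are uncertain because EIF3CL, listed at 0, is a near-identical copy. Of 14 eIF3 pseudogenes and copies 1 had reads, EIF3LP3, with 2 in shFTO replicate 2.

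Genes that work beside eIF3, or in complexes that share its folds, were compared in the same fit, and limma called 0 in each list. At an unadjusted p under 0.05, which 3.85% of all genes tested passed, limma took 0 of the recycling, COP9 and proteasome genes. It took 2 partners of the preinitiation complex. The 2 were EIF1 and EIF5B, which joins the ribosomal subunits and had 9 reads in shFTO and 0 in shNC. EIF5B passed the filter only through shFTO (3.79 FPKM, against 0 in shNC), so its p-value is no support for a difference. The quasi-Poisson fit called 0 of 1021 genes over the whole table, and so 0 in each list. Of the 14 genes listed as partners of the preinitiation complex 13 were tested. They had 9 lower and 4 higher estimates in shFTO and a median log2 difference of -0.05. EIF1AX and EIF4A1 passed the filter only through shNC, and EIF1AY, like EIF5B, only through shFTO. That list joins genes of the complex with eIF4 genes and EIF5B. EIF4G2, a relative of the scaffold that eIF3 binds, held 64.7% of the 79675 reads of the list. EIF1, which guards start codon choice, had 8652 ± 221 FPKM in shFTO and 9210 ± 511 FPKM in shNC (SD, n = 3 each; log2 difference -0.09, SE 0.04, limma adjusted p = 0.772). EIF5, which triggers GTP hydrolysis at the start codon, had 6483 reads, and EIF2S1, the alpha subunit of eIF2, had 1245.

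EIF3J is known for a part in ribosome separation together with ABCE1, the ATPase that splits ribosomes. ABCE1 had 14.4 ± 5.24 FPKM in shFTO and 15.7 ± 8.78 FPKM in shNC (SD, n = 3 each; log2 difference 0.00, SE 0.53, limma adjusted p = 1.00), from 55 reads. HBS1L, with 5 reads, passed the filter only through shNC. Of 9 recycling genes 7 were tested, with 4 lower and 3 higher estimates and a median log2 difference of -0.01. ETF1, the release factor that reads stop codons, held 3171 of their 3420 reads. GSPT1, its GTPase partner, had 99 reads and the reinitiation factor gene MCTS1 had 60.

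In the complexes that share the PCI and MPN folds with eIF3, reads were also concentrated in single genes. COPS2 held 80.8% of 292 reads of the COP9 signalosome. PSMD14, the deubiquitinase of the proteasome lid, held 65.0% of 834 reads of the proteasome list. That list joins lid genes with PSMD1, PSMD2 and PSMD4, which lie outside the lid and had 27, 35 and 12 reads. In the eIF3 genes described here EIF3J, which is not a PCI or MPN gene, held 68.3%. Of the 180 reads of the 8 eIF3 genes with PCI or MPN domains, EIF3A held 55%. The lists of initiation partners and recycling genes were likewise led by 1 gene, EIF4G2 at 64.7% and ETF1 at 92.7%. The median log2 difference was 0.41 over 7 tested COP9 genes, which is the estimate of COPS2, and -0.13 over 11 tested genes of the proteasome list. COPS7A, COPS8 and COPS9, with 3, 4 and 2 reads, passed the filter only through shFTO. In the proteasome list PSMD8 passed only through shFTO, and PSMD6 and PSMD13 only through shNC. These medians are therefore descriptions. COPS2 had 60.5 ± 11.6 FPKM in shFTO and 45.9 ± 12.2 FPKM in shNC, and PSMD14 had 119 ± 9.41 FPKM in shFTO and 130 ± 13.1 FPKM in shNC (SD, n = 3 each), neither of them called.

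Among 705 genes with a mean of at least 10 reads over the 6 libraries, likeness to EIF3J was measured by Pearson's r over the 6 libraries on log2(FPKM + 1), as a description that includes the difference between the groups. The highest values were 0.97 for RAP1BL, a copy of a small GTPase gene, 0.96 for the protein kinase gene PKN2 and 0.95 for the ribosomal protein gene RPL37A. Reads of RAP1BL are uncertain because close copies can share them. PKN2 had 16.6 ± 2.63 FPKM in shFTO and 24.2 ± 6.24 FPKM in shNC, and RPL37A had 15.8 ± 3.39 FPKM in shFTO and 33.2 ± 10.4 FPKM in shNC (SD, n = 3 each). The lowest values were -0.99 for UBE2M, a conjugating enzyme gene of the NEDD8 pathway, -0.98 for the pseudogene SETP14 and -0.93 for HNRNPM, an RNA-binding protein gene. UBE2M had 354 ± 25.5 FPKM in shFTO and 257 ± 38.7 FPKM in shNC (SD, n = 3 each). The only other eIF3 gene in this comparison, EIF3A, had an r of 0.29 with EIF3J.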

How the data were processed

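Per the labels' protocols, 3 shFTO and 3 shNC libraries were made from poly(A) RNA of MG63 cells. The submitters' processing notes name the build GRCh38 and, without their order, HISAT2 2.2.1, StringTie 1.3.3b, HTSeq 0.6.1, DESeq2 1.50.2 and FastQC 0.10.1. The authors deposited gene FPKM with 2 decimals beside exonic length and position. Columns were matched to samples by name. FPKM joins all exons in its length and scales by the library's total. The total of each library was sought between 20000 and 200000 as the one that turned FPKM times length into whole numbers, and 100% of values above 0 were whole within 0.05 read. The limit set for a count of 0 was 3 reads.

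The 4932 genes whose mean reached 1 FPKM in either group were fitted with limma 3.58.1 (R 4.3.3, trend and robust) on log2(FPKM + 1), with the group only, adjusted by Benjamini-Hochberg and called under 0.05. The test planned for gene counts was not used, as the table holds FPKM. Members next to each other by level were compared by exact paired permutation over libraries (Python 3.11.15, SciPy 1.17.1). Alternatives were a pseudocount of 0.1, other filters (none, or a mean of at least 10 reads over the libraries), median-of-ratios scaling, a replicate block, a quasi-Poisson fit to recovered reads of genes with at least 30 reads, and each library left out. The 2 alternatives with other gene lengths, from GENCODE release 29 on the same build, were chosen after seeing the data. Fits were tried on simulated data with changes placed only in genes of 10 to 30 reads a library on average. Of the members only EIF3A lies in that range, so the simulation does not cover EIF3J (79.8 reads) or the others. Members and lists were chosen with earlier results of these data known. Named were the 10 members, the other eIF3 genes, FTO, genes with the most reads in each list (up to 4), and the 3 genes most and least like EIF3J. EIF3J-DT, ACTB, GAPDH, EIF4A1 and EIF5B were named after their values were seen. The series calls its replicates independent and biological without naming separate cultures, so p-values measure the spread between these libraries. PCR duplicates cannot be told from separate molecules here, and intervals and limits cover counting error only.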

Additional observations from a re-analysis of the deposited data

How the results depend on the processing

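The log2 difference of EIF3J stayed below 0 in all 12 alternatives, from -0.70 without shNC replicate 2 to -0.41 without shNC replicate 3. With every shFTO library below every shNC library, leaving out 1 library cannot change this sign. EIF3J was also picked for this difference, so the unchanged sign is a description and no support for an effect. Estimates of EIF3D and EIF3H stayed above 0 in every alternative that tested them. Those of EIF3A, EIF3B, EIF3G and EIF3I changed sign in 2, 2, 2 and 3 of theirs. The estimate of EIF3M stayed below 0 where it was tested, but the filter on low values dropped EIF3M without shNC replicate 1. That library held all 3 of its shNC reads, so its sign was not tested without them. The count of eIF3 genes called was 0 throughout. The count over all genes, 2 as reported, was 7 with a pseudocount of 0.1, 9 with no filter, 0 with a mean of at least 10 reads over the libraries, 0 in the quasi-Poisson fit and 2 with median-of-ratios scaling. It ran from 2 to 9 when 1 library was left out, with 8 without shFTO replicate 1, 9 without shNC replicate 2 and 7 without shNC replicate 3. The cause of these shifts was not tested.

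With the replicate block 17 genes were called, 0 of them eIF3 genes, and EIF3J stood at -0.58 (SE 0.16). Deviations of libraries with the same number correlated at 0.00, 0.04 and -0.01 over 705 genes, and not every library correlated best with its own number, so the numbers are taken as names only.

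The mean log2 difference, above 0 as reported, fell below 0 for EIF3A over EIF3H, EIF3D over EIF3B and EIF3B over EIF3I per coding length (-0.73, -0.15 and -0.37) and per length of the transcript with the longest coding sequence (-0.52, -0.16 and -0.24). By mean level EIF3D stayed above EIF3B on both of these scales. EIF3M over EIF3E stood at -0.06 as reported, where EIF3M has the higher mean FPKM, and at -2.27 and -2.73 on these scales, where EIF3E has the higher mean. Some neighbours below EIF3H also changed order without a single library. With 1 library left out the exact test allows no p under 0.0625. The planned length from RefSeq proteins was not run, since no protein table was used here.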
